A study of Mus with 15 samples.

Results

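The HoxD cluster is the run of 9 Hox genes on mouse chromosome 2 (Hoxd13, Hoxd12, Hoxd11, Hoxd10, Hoxd9, Hoxd8, Hoxd4, Hoxd3 and Hoxd1), here described through peaks of H2AK119ub1 (monoubiquitinated histone H2A, here H2Aub) in the thalamus of adult mice. The members were chosen by name, 9 of 21887 protein-coding genes on chromosomes 1 to 19, X and Y, and each was read over its gene body and over a window of the body with 5 kb on each side. The cluster was also read as a single interval from the first base of Hoxd13 to the last base of Hoxd1, chr2:74668225-74765142 in mm10, a length of 96.918 kb.

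H2Aub was profiled by ChIPmentation, a chromatin immunoprecipitation in which Tn5 inserts the sequencing adapters on the beads, in thalami of mice aged 2 to 4 months. The 11 H2Aub libraries fell into 4 groups, WT cocaine (n = 3), WT saline (n = 3), cKO cocaine (n = 2) and cKO saline (n = 3). The animals called WT carried the floxed Maged1 allele without Cre (labelled Maged1 Loxp), and the cKO animals were Maged1cKO, in which Cre under the Vglut2 promoter removes Maged1. All animals were injected with saline for 3 days and then for 5 days with either saline or 20 mg/kg of cocaine by the intraperitoneal route. Each library came from 3 to 4 pooled thalami per the labels. The deletion reaches only cells that use the Vglut2 promoter, and a thalamus holds other cells too. In such bulk tissue, fewer cells carrying the mark and less mark per cell cannot be told apart, and peaks of a histone mark do not measure the deletion of Maged1.

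H2Aub is placed by the RING1 ubiquitin ligases of Polycomb repressive complex 1 and is found over developmental genes that a tissue keeps silent. Hox genes encode homeodomain transcription factors that give cells their position along the body axis and in the limb, and the forebrain, thalamus included, develops without their use. Within the cluster the genes lie in the order in which they act along the axis, with Hoxd13 for the most posterior structures at one end and Hoxd1 at the other. Evx2, a homeobox gene related to even-skipped, lies beyond Hoxd13, and the long non-coding gene Haglr lies between Hoxd3 and Hoxd1. No strand or exon structure was available, so positions are given relative to whole gene bodies.

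The 11 lists held 7271 to 80713 peaks that covered 4.24 to 27.6 Mb of the genome, and the lists do not give the number of reads behind them. The study states a minimum depth for all samples, and read numbers per library were not used here. The replicates numbered 1 of both cKO groups stood apart from the other 9 libraries. Their highest fold enrichment over input was 31.2 in cKO cocaine and 52.6 in cKO saline, against at most 12.2 elsewhere, and they held 7542 and 6877 peaks with a q of at most 1e-10, against 3 to 13. Differences between groups that moved by more than 1.5 times without them are given both ways. As a check of the labelled tissue, the defining markers of thalamic glutamatergic neurons were looked up in the same lists. Of 8 such markers, Lhx9, Gbx2 and Lef1 carried a peak in all 11 libraries, while Slc17a6, the gene of Vglut2, had one in 9 libraries and 1.62% of its window covered on average. A peak does not say whether a gene is expressed, so these lists neither show nor exclude the labelled cell type.

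All 9 HoxD genes lay under H2Aub peaks in every library. A peak in the gene window in all 11 libraries was found at 9 of 9 members, against 6.76% of protein-coding genes. At least 50% of the window was covered in all 11 libraries at 7 of 9 members, against 0.343% of protein-coding genes, and the exceptions were Hoxd4 and Hoxd1. In single libraries, a peak was found at 12.6 to 58.9% of protein-coding genes when all peaks were used. With each list limited to its 7271 peaks of lowest p, the number in the shortest list, 10 libraries still had a peak at all 9 members, and cKO cocaine replicate 1 had one at 8, with none in the Hoxd1 window. The share of all protein-coding genes with a peak was not counted at that list length.

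The interval as a whole was 58.4% to 90.2% covered, with a median of 79.0% and a mean of 73.5% ± 11.1 (SD, n = 11). The WT cocaine libraries had 90.2%, 79.3% and 79.0% of it under peaks, and the WT saline libraries had 75.3%, 62.2% and 82.3%. The cKO cocaine libraries had 61.0% and 81.4%, and the cKO saline libraries 58.4%, 79.7% and 59.8%. Values near 60% occurred in WT saline and in both cKO groups and not in WT cocaine, but each of those groups also had a library above the lowest WT cocaine value, so the groups overlapped. With 7271 peaks per list, cKO cocaine and cKO saline replicate 1 fell to 22.1% and 17.4%, and the other 9 libraries had 59.8 to 89.8%. When the chromosomes were divided into 28079 tiles as long as the interval, 0 to 3 tiles per library were covered at least as much.

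**Figure D1:**
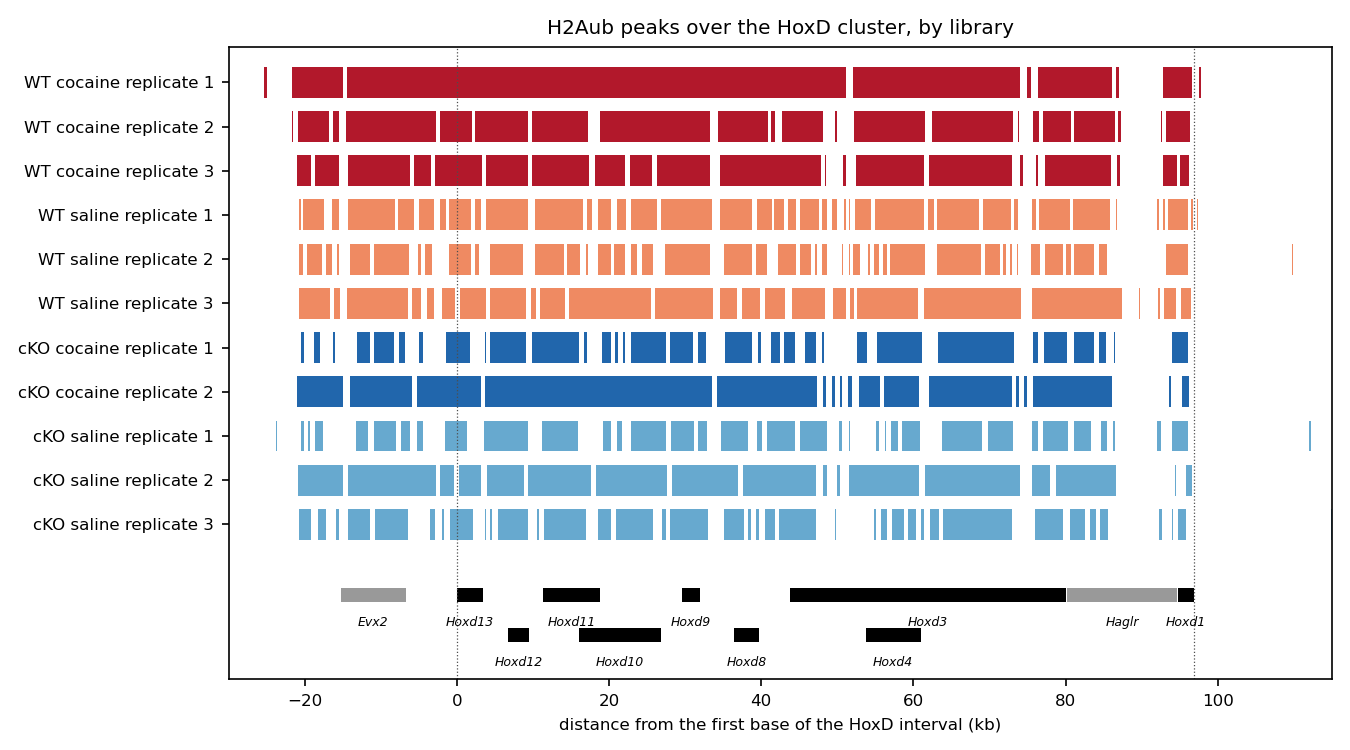
H2Aub peaks of each of the 11 libraries (rows, filled blocks) against the distance in kb from the first base of the HoxD interval, with the member genes in black and Evx2 and Haglr in grey below. Dotted lines mark the ends of the interval. In every library peaks run from beyond Evx2 into Hoxd1, with the widest gap of the interval inside Haglr.

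The covered domain had nearly the same ends in all libraries. When peaks at most 10 kb apart were joined, the domain containing the cluster was 116 to 123 kb long. Its border on the Evx2 side lay 5284 to 10835 bp beyond Evx2 (chr2:74652989-74661520), with a median of 5638 bp, so Evx2 was inside it in every library. Its border on the Hoxd1 side lay at −1120 to 830 bp relative to the end of Hoxd1, and it fell inside the Hoxd1 body in 9 of 11 libraries. In the first 25 kb outside the interval, the Evx2 side was covered to 66.9% at the median (35.1 to 84.6%, peaks in 11 of 11 libraries), whereas the side toward Mtx2 reached at most 0.948% and had peaks in 5 of 11. From 25 to 100 kb, peaks were found in 2 libraries on the Evx2 side and in 1 on the Mtx2 side, and covered at most 0.428% and 1.11% of that length.

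The outlying neighbours were nearly free of the mark. Lnpk, which encodes lunapark, a protein of the endoplasmic reticulum, had a peak in its body in 2 libraries and at most 0.309% covered. Mtx2, which encodes a protein of the outer mitochondrial membrane, had a peak in its body in 1 library and at most 0.308% covered. By contrast the Evx2 body was covered to 60.4 to 93.0%, with a median of 89.7%, in 11 of 11 libraries. Inside the cluster, the body of the microRNA gene Mir10b (chr2:74726070-74726137), which lies within Hoxd4 and Hoxd3, was fully covered in every library.

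The widest gap inside the cluster was in Haglr (chr2:74748422-74762896) in all 11 libraries and measured 2356 to 7805 bp, with a median of 5794 bp. Haglr was covered to 29.8 to 62.9% of its body, with a median of 45.3%. It held both of the stretches of at least 500 bp that no library covered, of 2284 and 2244 bp. In all, 5.265 kb of the interval (5.43%) was covered in no library, 56.184 kb (58.0%) in at least 9 libraries and 31.398 kb (32.4%) in all 11. The bases covered in all 11 libraries fell into 32 stretches. The longest was 4802 bp at chr2:74732102-74736903 in the Hoxd3 body, and the next were 3295 bp over Hoxd12, 2765 bp over Hoxd9 and 2610 bp over Hoxd11.

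Gene bodies were covered more fully than the spaces between them. The union of the member bodies (65.828 kb) was covered to 78.3% ± 11.04 (SD, n = 11) and the remaining 31.09 kb to 63.3% ± 11.6, with bodies higher in 11 of 11 libraries. The stretch from Hoxd13 to the end of Hoxd8 was covered to 83.1% ± 12.2 and the rest, from there to Hoxd1, to 66.8% ± 10.7, the first being higher in 11 of 11 libraries. These divisions were made after the values had been seen and are given without a test. Haglr lies in the less covered division of both.

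**Figure D2:**
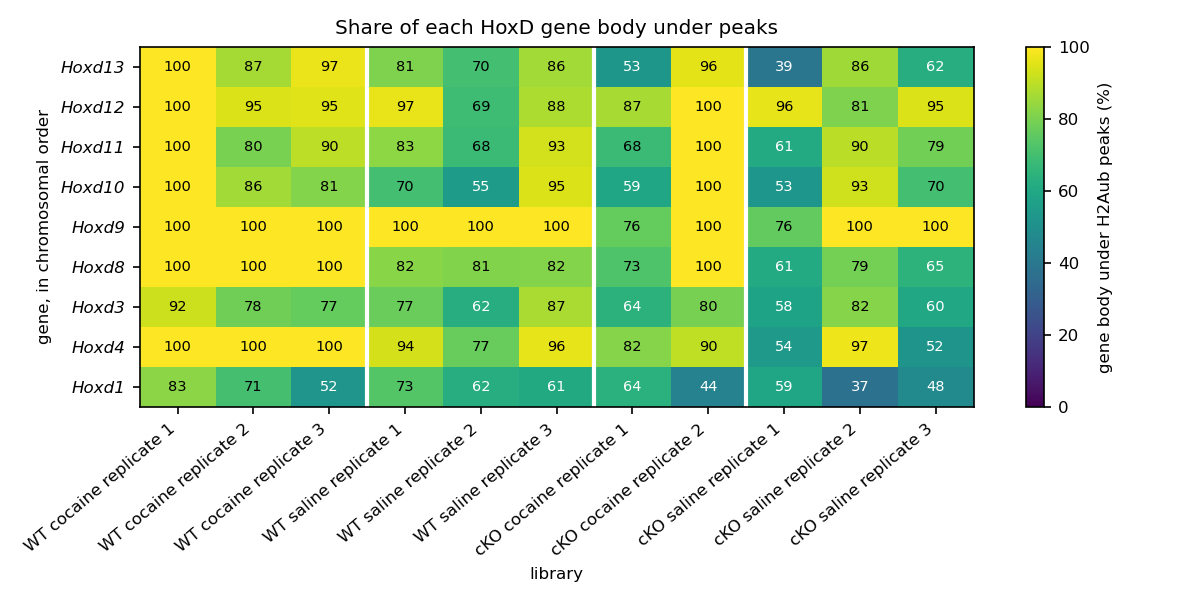
Percent of each member's gene body under H2Aub peaks, by gene in chromosomal order (rows) and library (columns, groups separated by white lines). Hoxd9 was fully covered in 9 of 11 libraries, and Hoxd1 had the lowest mean.

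Among the genes of the posterior end, which pattern limbs, genitalia and the lower spine, Hoxd12 was covered most evenly. The Hoxd12 body (chr2:74675013-74677705, gene ID 15432) was covered to 91.1% ± 9.43 (SD, n = 11), with a lowest value of 68.8%, a median of 94.8% and a highest of 100%. Hoxd13 (chr2:74668225-74671603, gene ID 15433), which is required for digits, was covered to 77.9% ± 19.5 and ranged from 39.3% in cKO saline replicate 1 to 100% in WT cocaine replicate 1. The spread of Hoxd13 was the largest of the 9 members. Hoxd11 (chr2:74679558-74687016, gene ID 15431), which with Hoxa11 shapes the forearm and kidney, was covered to 82.9% ± 13.1. Hoxd10 (chr2:74684273-74695106, gene ID 15430), which acts in motor neurons of the lumbar cord, was covered to 78.3% ± 17.97, and its body overlaps that of Hoxd11, so the values of this pair share sequence.

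In the middle of the cluster, Hoxd9 was the most fully covered member. The Hoxd9 body (chr2:74697763-74700208, gene ID 15438) was at 100% in 9 of 11 libraries, and at 76.2% and 76.1% in the replicates 1 of cKO cocaine and cKO saline, the libraries that stood apart. Hoxd8 (chr2:74704615-74707933, gene ID 15437) was covered to 83.8% ± 14.47 (SD, n = 11), from 61.3% to 100%.

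The anterior members, which act in the hindbrain, neck and sensory nervous system, showed the greatest contrast between genes. Hoxd4 (chr2:74721978-74729160, gene ID 15436), a gene of the posterior hindbrain and upper cervical vertebrae, was covered to 85.6% ± 17.9 and lies entirely within the annotated Hoxd3 body. Hoxd3 (chr2:74711993-74748271, gene ID 15434), which patterns the first neck vertebrae, was covered to 74.3% ± 11.5. Hoxd1 (chr2:74762980-74765142, gene ID 15429), which is known from pain-sensing neurons of the mouse, was covered to 59.4% ± 13.4, the lowest mean of all members.

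In the order of mean body coverage (Hoxd9, Hoxd12, Hoxd4, Hoxd8, Hoxd11, Hoxd10, Hoxd13, Hoxd3, Hoxd1), a single pair of neighbours differed beyond the spread between libraries. Hoxd3 exceeded Hoxd1 by 14.9 ± 4.70 percentage points (SE, n = 11) in 10 of 11 libraries (exact sign-flip permutation test, two-sided, p = 0.00488, adjusted p = 0.0391 over 8 pairs). The other 7 pairs differed by 0.454 to 5.499 points, with adjusted p from 0.234 to 0.885 in the same exact test. The smallest p this test can give is 0.000977. The pairs were formed by ordering the genes on the same values, so the direction of each difference was fixed by the ordering, and the p-values do not allow for that.

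The fold enrichment of the strongest peak in the interval differed little between libraries except in those that stood apart. In the other 9 libraries the highest fold in the interval was 5.19 ± 0.322 (SD, n = 9), from 4.82 to 5.62. By gene body in the same 9 libraries it was lowest at Hoxd1 (4.11 ± 0.411), then at Hoxd4 (4.501 ± 0.335), and highest at Hoxd10 (5.02 ± 0.376). The highest fold in the interval was 10.5 in cKO cocaine replicate 1 and 13.2 in cKO saline replicate 1, at overlapping peaks of the Hoxd3 body, chr2:74731426-74741418 and chr2:74731967-74737208.

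In these libraries the height was uneven between members. Hoxd3 reached 10.5 and 13.2-fold in cKO cocaine and cKO saline replicate 1, Hoxd8 reached 8.50 and 11.8, Hoxd13 8.42 and 10.97, Hoxd11 7.72 and 9.47, and Hoxd1 6.92 and 9.02. Hoxd9 reached 7.44 and 7.09. In the bodies of Hoxd12, Hoxd10 and Hoxd4 the highest fold stayed between 4.62 and 6.002 in the same libraries. The high fold values thus stood at the same members in both libraries. In both, the bodies of Hoxd10 and Hoxd4, of low fold, and of Hoxd13, Hoxd11, Hoxd9, Hoxd8 and Hoxd3, of high fold, were covered below their means over the 11 libraries. The exceptions were Hoxd12, of low fold, at 96.5% in cKO saline replicate 1 against a mean of 91.1%, and Hoxd1, of high fold, at 63.7% in cKO cocaine replicate 1 against 59.4%.

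**Figure D3:**
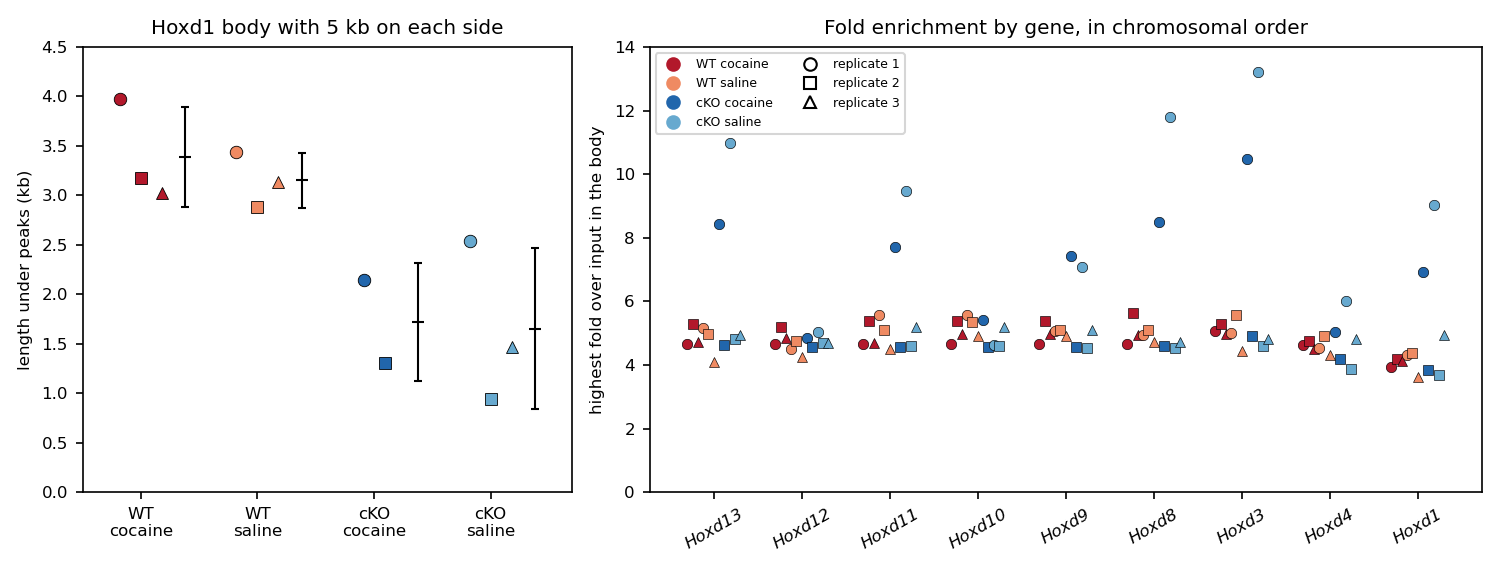
Left, length under peaks (kb) in the Hoxd1 window of the body with 5 kb on each side, by group, 1 point per library, with the mean and SD as bars. Right, highest fold enrichment over input in the body of each member, by library. Left, all 6 WT libraries lie above all 5 cKO libraries. Right, the high points are the replicates 1 of both cKO groups.

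The first comparison asked whether H2Aub over the cluster differed after repeated cocaine in WT mice. The cluster was cut into fewer and wider peaks in the WT cocaine libraries than in the WT saline libraries, without overlap between the groups, while the covered share overlapped. The number of peaks in the interval was 6, 17 and 17 in WT cocaine and 32, 35 and 19 in WT saline. The widest peak measured 65.5, 14.6 and 13.3 kb in WT cocaine and 6.66, 5.94 and 12.7 kb in WT saline. The closest libraries of the groups, WT cocaine replicate 3 and WT saline replicate 3, differed little in both measures.

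The mean difference in peak number was −15.3 ± 6.13 (SE, 3 against 3 libraries), with p = 0.1 in the two-sided exact permutation test and an adjusted p of 0.8 over 16 comparisons. For the widest peak it was 22716 ± 17324 bp (exact permutation p = 0.1, adjusted p = 0.8), and without WT cocaine replicate 1, whose 65.5 kb peak ran from Evx2 to Hoxd3, it was 5528 bp. A p of 0.1 is the smallest these group sizes allow, so no comparison between groups could pass 0.05. When peaks at most 1 kb apart were merged, the groups differed by only −1.33 fragments (exact permutation p = 0.8), which places the difference in number at gaps below 1 kb.

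Coverage of the interval was 82.8% ± 6.38 in WT cocaine and 73.3% ± 10.2 in WT saline (SD, n = 3 each), a difference of 9.55 ± 6.95 points (SE, exact permutation p = 0.3, adjusted p = 0.889). It was 4.01 points without WT saline replicate 2 and 5.87 without WT cocaine replicate 1. As a share of the length of all peaks in the list, the interval took 0.507%, 0.512% and 0.738% in WT cocaine and 0.658%, 1.09% and 0.949% in WT saline, so on this scale the difference, cocaine minus saline, was −0.312 points (exact permutation p = 0.2). The WT cocaine lists covered more of the genome, 10.4 to 17.2 Mb against 5.55 to 11.1 Mb in WT saline. The part of this in the result was not tested. The highest fold differed by −0.129 ± 0.297 (SE, exact permutation p = 1).

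**Figure D4:**
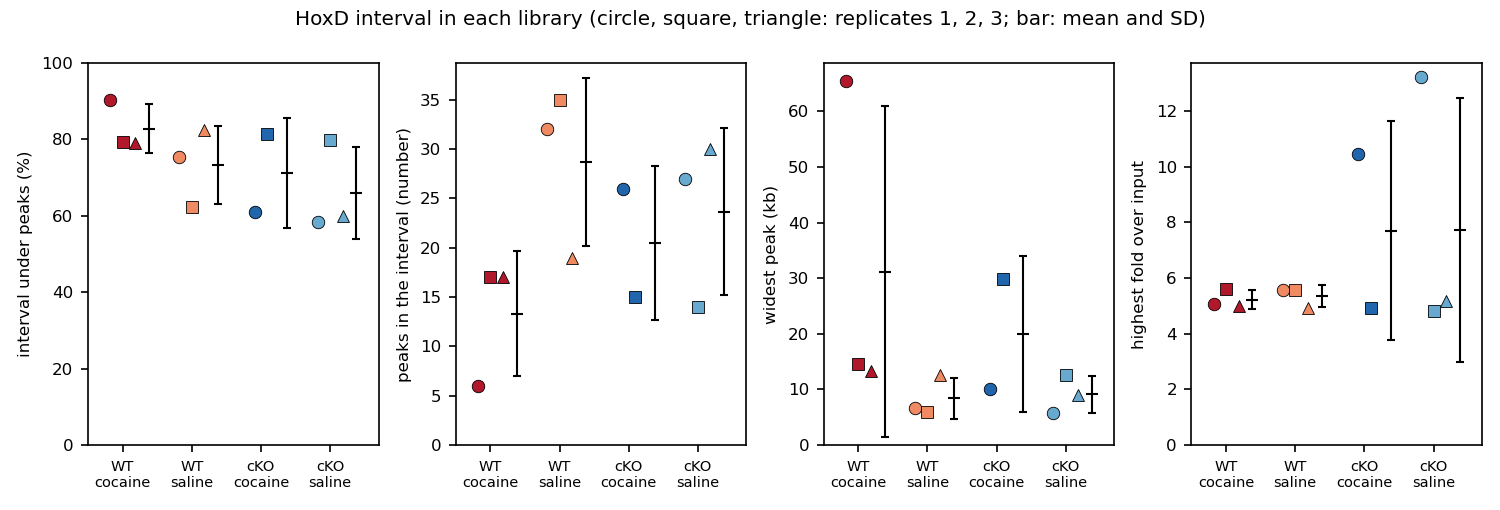
Percent of the HoxD interval under peaks, number of peaks, widest peak (kb) and highest fold enrichment over input, by group, 1 point per library, with the mean and SD as bars. Peak number and widest peak do not overlap between WT cocaine and WT saline, and the high fold values are the replicates 1 of both cKO groups.

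At single members, the covered length of the window was without overlap between the WT groups at 3 of 9, all with cocaine above saline, namely Hoxd13, Hoxd12 and Hoxd8. The same held for 5.81% of all protein-coding genes and for 33.3% of the 1479 genes with a peak in all 11 libraries, so 3 of 9 members is the share found among genes that carry the mark throughout. None of the members was lower without overlap (0.11% of all genes). In the body alone, with no flank, the count was also 3, with Hoxd4 in place of Hoxd12. The share of all genes apart was not counted for bodies alone, so that count is not read further. The Hoxd12 body was at 100%, 94.8% and 95.2% in WT cocaine and at 96.6%, 68.8% and 87.8% in WT saline, which overlapped. The Hoxd8 body was at 100% in each WT cocaine library and at 82.2%, 81.1% and 81.5% in WT saline. The Hoxd13 body was at 100%, 86.7% and 97.0% in WT cocaine and at 80.7%, 70.1% and 86.0% in WT saline, and the values of the groups lay less than 1 point apart at their nearest. Hoxd4 was at 100% in each WT cocaine library and at 93.6%, 76.8% and 96.2% in WT saline.

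Changes of position were minor. Of the bases of the interval covered in any WT library, 0.0988% (90 bp) were covered in all WT cocaine and no WT saline library, and 0.123% (112 bp) the other way. Over the whole genome these shares were 1.80% and 0.0649%.

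The second comparison asked the same in mice without Maged1 in Vglut2 cells, where the cocaine and saline libraries overlapped in every measure of the interval. Coverage averaged 71.2% ± 14.4 over the 2 cocaine libraries and 66.0% ± 11.9 over the 3 saline libraries (SD), a difference of 5.201 ± 12.3 points (SE, exact permutation p = 0.5). Without the replicates numbered 1, which left 1 cocaine and 2 saline libraries, the difference in coverage was 11.6 points, that in the widest peak rose from 10776 to 19022 bp, that in peak number was −7, against −3.17 with all libraries, and that in the highest fold was −0.0980, against −0.0521. Without cKO cocaine replicate 2 alone, which held the 29.8 kb peak, the difference in the widest peak fell to 862 bp. The libraries held 26 and 15 peaks in cocaine and 27, 14 and 30 in saline. The widest peak was 9.99 and 29.8 kb in cocaine and 5.80, 12.5 and 9.08 kb in saline, and the 29.8 kb peak, from Hoxd12 across Hoxd9, was the widest in its whole list. The differences in peak number, widest peak and highest fold gave exact permutation p of 0.7, 0.2 and 1. Covered length was apart at 0 of 9 members upward (2.52% of genes) and at 0 of 9 downward (0.0503%), and without the replicates numbered 1 at 6 of 9 upward. With the same libraries left out, 17.6% of all protein-coding genes and 78.1% of those with a peak in all 11 libraries were apart upward. With 1 library against 2, no more is read from the count of members.

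The cocaine difference was not shown to differ between genotypes. For coverage the difference in cKO minus that in WT was −4.35 points (exact permutation of treatment within genotype, 200 arrangements, p = 0.76), and without the replicates 1 of both cKO groups it was 2.05 points. For the widest peak it was −11941 bp (exact permutation p = 0.675), for peak number 12.2 (p = 0.31) and for the highest fold 0.0766 (p = 0.94), and without the same libraries −3695 bp, 8.33 and 0.0307. With 7271 peaks per list the coverage value was −11.03 points (exact permutation p = 0.665) and the peak number value 7.17. Without WT cocaine replicate 1 alone the value for the widest peak was 5247.5 bp, and that for the highest fold changed sign with 6 of the 11 single omissions. The comparisons share libraries and are not independent.

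The remaining comparisons set cKO against WT mice after saline and after cocaine, and the interval as a whole overlapped between genotypes in all 4 measures of both. The difference in coverage, cKO minus WT, was −7.30 ± 9.07 points after saline (SE, exact permutation p = 0.5) and −11.6 ± 10.8 points after cocaine (exact permutation p = 0.4). The highest fold was higher in cKO by 2.39 ± 2.75 after saline and by 2.47 ± 2.79 after cocaine (exact permutation p = 0.9 and 0.4). Without the replicates 1 of both cKO groups the fold differences turned into −0.348 and −0.317, and the coverage differences came to −3.50 points after saline and −1.44 after cocaine. With 7271 peaks per list, where these libraries lost the most coverage, the coverage differences were instead larger, at −20.1 points after saline and −31.1 after cocaine (exact permutation p = 0.4 and 0.3). The widest peak differed by 711 bp after saline and −11230 bp after cocaine, and without those libraries by 2378.5 and −1316 bp. Peak number differed by −5 after saline and 7.17 after cocaine, and without them by −6.67 and 1.67. Without cKO saline replicate 2 alone the saline difference in peak number was −0.167, and without cKO cocaine replicate 2 alone the cocaine one was 12.7. With 7271 peaks per list they were −10.3 and −3.17.

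Of the members, Hoxd1 stood apart by genotype. Its covered window length was lower in cKO saline than in WT saline without overlap, which was so at 1 of 9 members (0.37% of genes), and together with Hoxd4 it was lower in cKO cocaine than in WT cocaine, at 2 of 9 members (1.77% of genes). In the opposite direction there were 0 of 9 members after saline (0.329%) and 0 of 9 after cocaine (3.6%). With all libraries, the shares among genes with a peak in all 11 libraries were not counted. Without cKO saline replicate 3, 1 member was lower in cKO saline, against 0.384% of all genes and 3.52% of those with such peaks. Without WT cocaine replicate 1, 2 members were lower in cKO cocaine, against 2.39% and 13.9%. At Hoxd1, peaks covered 3970, 3180 and 3024 bp of the window in WT cocaine and 3436, 2884 and 3136 bp in WT saline. They covered 2143 and 1301 bp in cKO cocaine and 2544, 944 and 1469 bp in cKO saline. All 6 WT libraries lay above all 5 cKO libraries, in a window of which at most 32.6% was covered.

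In means, the Hoxd1 window held 3272 ± 388 bp (SD, n = 6) in WT and 1680 ± 650 bp (SD, n = 5) in cKO, a difference of 1591 bp. This gene was singled out after its values were seen, so the difference is given without a test. Complete separation in this direction was found at 4 protein-coding genes, which is 0.0183% of all and 0.27% of those with a peak in all 11 libraries. The other genes were En1, Hand1 and Sfmbt2. En1 is a homeobox gene of the midbrain and hindbrain border, Hand1 a transcription factor of heart and placenta, and Sfmbt2 encodes a Polycomb protein. No member had all cKO above all WT libraries, and the share of all genes in that direction was not counted. How many genes would separate with shuffled genotype labels was not tested, so the 4 genes are not read as an effect of genotype.

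Set beside the coverage of the whole interval, WT cocaine replicate 1 had the highest WT value of both (90.2% and 3970 bp) and WT saline replicate 2 the lowest WT value of both (62.2% and 2884 bp). In cKO, the replicates 2 after cocaine and after saline had the higher interval coverages of their groups, 81.4% and 79.7%, and the lowest Hoxd1 lengths, 1301 and 944 bp. The part of interval coverage in the Hoxd1 difference was not tested. In the body alone the means differed by 356.8 bp, and peaks covered 1125 to 1789 bp in WT and 806 to 1378 bp in cKO, which overlapped. With peaks of a q of at most 0.01 alone, the window also overlapped, at 1541 to 3769 bp in WT and 138 to 2544 bp in cKO. With 7271 peaks per list it stayed apart, at 2884 to 3769 bp in WT and 0 to 2015 bp in cKO. A stretch of 500 bp in Haglr, chr2:74761641-74762140, was covered in all WT saline and in no cKO saline library. Another of 290 bp, chr2:74761473-74761762, was covered in all WT cocaine and in no cKO cocaine library. Outside Haglr, the longest such stretches were of 414 bp after saline (chr2:74695819-74696232) and 505 bp after cocaine (chr2:74715582-74716086). Of the interval's bases covered in any compared library, such bases made up 1.02% after saline and 1.57% after cocaine. Over the whole genome these shares were 0.392% and 1.31%. In the opposite direction they were 0% and 0.0642% of the interval, and 0.108% and 0.896% of the genome.

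The ranges of the genotypes at Hoxd4 were apart after cocaine and overlapped after saline, although the means lay further apart after saline. Its body was at 100% in the 3 WT cocaine libraries and at 81.7% and 90.3% in cKO cocaine, and after saline it was at 93.6%, 76.8% and 96.2% in WT and at 54.1%, 97.4% and 51.6% in cKO. The mean of the body was 100% in WT cocaine and 86.0% in cKO cocaine, and 88.9% and 67.7% in WT and cKO saline, and the genotype difference was not shown to depend on treatment (window coverage, cocaine effect in cKO minus that in WT, 3.14 points, exact permutation p = 0.86). Without cKO cocaine replicate 2, all 9 members were lower in the remaining cKO cocaine library, replicate 1, which stood apart from the others, than in WT cocaine. The same was so at 3.27% of all protein-coding genes and at 28.1% of those with a peak in all 11 libraries.

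Since all Hox clusters are read in the same library, HoxD could be compared with the others within each library. HoxD was less fully covered than HoxA, was not shown to differ from HoxC, and was covered more fully than HoxB only when the distant Hoxb13 was counted in. HoxA was covered to 82.7% ± 13.3, HoxC to 72.8% ± 15.4 and HoxB to 57.0% ± 8.44 (SD, n = 11). The difference HoxD minus HoxA was −9.22 ± 1.22 points (SE, exact sign-flip permutation test, p = 0.00195, adjusted p = 0.00293 over 3 comparisons), with HoxD lower in 10 of 11 libraries. The exception was cKO saline replicate 1, where HoxD was 0.898 points higher.

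HoxD was 16.5 ± 1.21 points above HoxB in 11 of 11 libraries (exact sign-flip p = 0.000977, adjusted p = 0.00293). With Hoxb13 left out the HoxB interval was covered to 75.2% ± 10.5 and the difference HoxD minus HoxB was −1.67 points (exact sign-flip p = 0.187). Against HoxC the difference was 0.717 ± 1.52 points (exact sign-flip p = 0.647). The widest peak of HoxD minus that of HoxA was −4.57 ± 1.51 kb (exact sign-flip p = 0.0107, adjusted p = 0.0322) and did not pass against HoxB (p = 0.367) or HoxC (p = 0.803) in the same exact test.

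**Figure D5:**
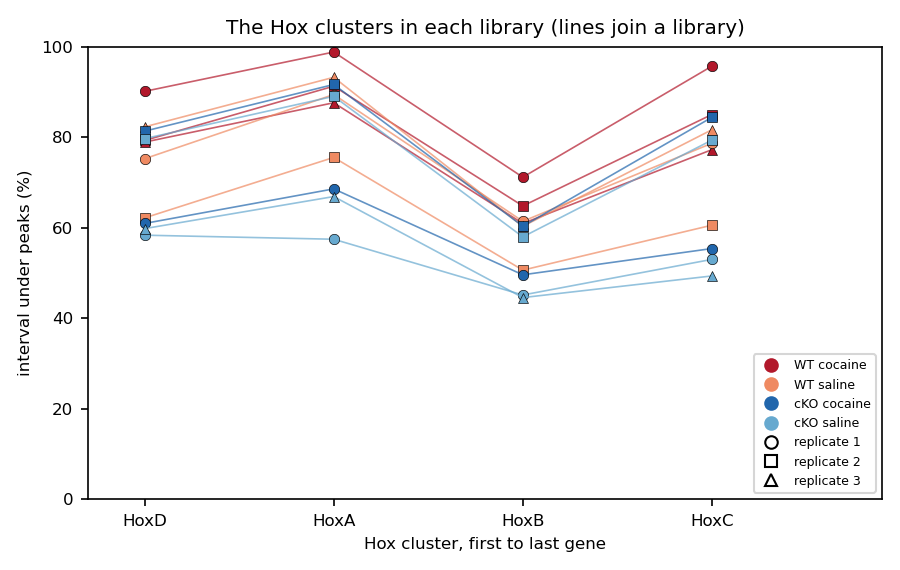
Percent of each Hox cluster, from its first to its last gene, under H2Aub peaks, 1 point per library and cluster, with lines joining the values of a library. HoxA lies above HoxD in 10 of 11 libraries and HoxB, which here includes Hoxb13, below it in all 11.

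The genes of the other Hox clusters also carried peaks in all libraries, while most genes of Hox cofactors and all housekeeping genes on the list did not. A peak in all 11 libraries was found at 11 of 11 HoxA, 10 of 10 HoxB and 9 of 9 HoxC genes, and the median member window was covered to 81.3%, 82.5% and 75.7%, against 79.9% for HoxD. Across all protein-coding genes the median was 0.0897%. Among 9 cofactors of the Pbx, Meis and related families, which bind DNA with Hox proteins, Meis1 and Meis2 had a peak in all 11 libraries, with 6.20% and 7.57% of the window covered, and the other 7 in some. Of 8 housekeeping genes, 5 had no peak in any library and 0 had one in all.

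Markers of neurons in the thalamus included genes covered as widely as some Hox genes. The GABA neuron genes Gad1, Gad2 and Slc32a1 had a peak in all 11 libraries, with mean window coverages of 19.1%, 5.98% and 49.0%, and that of Slc32a1 was above the 21.0% of Hoxd1. Of the 8 thalamic markers, Gbx2 and Lhx9 had 68.4% and 34.1% of their windows covered on average, and the other 6 had 0.343 to 3.85%, with a median of 1.62% over the list. None of the 4 oligodendrocyte, 4 astrocyte and 4 microglia markers had a peak in all 11, and the mean coverage of their windows ranged from 0 to 7.47%. What share of the HoxD peaks each cell type gave was not tested.

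Outside the Hox clusters, genes were ranked by how closely their covered percent followed that of the HoxD interval over the 11 libraries, among 2763 genes with a peak in at least 9 libraries, whose median Pearson r was 0.0675. The closest were Tbx15 (r = 0.983), Gata4 (r = 0.975), Sp8 (r = 0.970), Pax9 (r = 0.965) and Spag6 (r = 0.963). Tbx15, Gata4, Sp8 and Pax9 encode developmental transcription factors, and Spag6 encodes a protein of the sperm flagellum. Within a library these values and that of HoxD come from the same peak list, so they are a description and carry no p.

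Coverage of HoxD was also set beside the length of the lists. The longest lists, of the replicates 1 of cKO saline and cKO cocaine (27.6 and 21.2 Mb), had 58.4% and 61.0% of the interval covered, among the lowest values. Over the other 9 libraries, coverage of the interval and the genome length under peaks elsewhere had r = 0.80 (permutation p = 0.0124, adjusted p = 0.0186 over 3 relations) and rho = 0.567 (permutation p = 0.122, adjusted p = 0.182). The widest peak and the median peak width of the list had r = 0.775 (permutation p = 0.011, adjusted p = 0.0186) and rho = 0.633 (permutation p = 0.0779, adjusted p = 0.182). Leaving out the 2 libraries farthest from the median gave r = 0.525 and r = 0.344, so both relations rested on those libraries. Coverage and the number of peaks in the list had r = 0.583 (permutation p = 0.102) and rho = 0.40 (permutation p = 0.293), and r = 0.474 with the same omission.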

How the data were processed

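H2Aub ChIPmentation peak lists of 11 thalamic libraries were analysed, and 4 input libraries were not analysed here. Per the labels and the study's methods, the authors mapped reads to mm10 with Bowtie2 (2.3.4.1) and called broad peaks against input with MACS2 (2.1.1.20160309.3), 1 list per library. The deposited lists give peak positions, a score, fold enrichment as a linear ratio, and −log10 p and −log10 q. They hold no read counts, so depth per list was not used here and was not corrected for. Up to 32.9% of a list's peaks had a q above 0.05, past the threshold the methods state, and all peaks were used.

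Genes came from a GRCm38.p6 table without strand (the coordinates of mm10). Libraries were the replicates, and p-values measure their spread. Group means were compared by exact permutation tests and pairs within a library by exact sign-flip tests, two-sided, with Benjamini-Hochberg adjustment (Python 3.11.15, numpy 2.4.6, scipy 1.17.1, matplotlib 3.10.9). Genes apart between groups were counted over 21887 protein-coding genes. Named were all 9 members, listed neighbours, the 5 genes most like the interval, and others where a count was 5 or fewer. Scripts were tested on simulated data. Members and lists were chosen with earlier results of these data known. Alternatives varied the q threshold, list length, interval, flank, scale and libraries. The comparison of all 6 WT with all 5 cKO libraries, the HoxB interval without Hoxb13, the divisions of the interval and the alternatives for the genotype difference of the cocaine effect in measures other than coverage were added after seeing the data.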

Additional observations from a re-analysis of the deposited data

How the results depend on the processing

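On the chromosomes used, the lists held 7271 to 80713 peaks. They held no read counts, so depth could not be taken into account, and no test between a pair of groups could pass 0.05. Of 418 alternative values, 372 kept their direction and side of the threshold or stayed near the first value, 34 changed sign or fell to 0, and 12 counts moved. The sign of the coverage difference between cocaine and saline changed when covered length was taken as a share of the list (−0.312 in WT, −0.365 in cKO) and, in cKO, with an equal number of peaks per library (−1.01). Peak number in cKO saline against WT saline became 3.33 after merging, and in cKO cocaine against WT cocaine −3.17 with equal numbers. When both cKO replicates numbered 1 were left out, the genotype difference of the cocaine effect became 2.05, the fold differences between genotypes −0.348 and −0.317, and HoxD minus HoxC −0.336, which was −2.53 in the interval widened by 5 kb. HoxD minus HoxB was −1.67 without Hoxb13. The cause was not tested.

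Members apart between groups numbered 6 for cKO cocaine above cKO saline without the replicates numbered 1, 2 for WT saline above cKO saline with no flank and with one of 2 kb, 1 for WT cocaine above cKO cocaine with no flank, and 0 for all WT above all cKO with no flank or with a q of at most 0.01. At that q, WT saline above cKO saline fell from 1 to 0 and WT cocaine above WT saline rose from 3 to 4 with Hoxd1 added. The share of all genes apart with these flanks or at this q was not counted, so these counts are not read further.

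Leaving out single libraries gave the following ranges. Coverage differed by 4.01 to 14.1 points for cocaine in WT, by −14.2 to −2.77 for cKO saline against WT saline and by −21.9 to −1.44 for cKO cocaine against WT cocaine. It differed by −5.004 to 15.4 points for cocaine in cKO, negative without cKO cocaine replicate 2, and the genotype difference of the effect ran from −14.6 to 5.86, positive without WT saline replicate 2, cKO cocaine replicate 1 or cKO saline replicate 2. The widest peak ran from −980 to 2836 bp for cKO saline against WT saline, and from −21143 to 5958.5 bp for cKO cocaine against WT cocaine, positive without WT cocaine replicate 1. It ran from 862 to 20689 bp for cocaine in cKO. Peak number ran from −8.67 to 2.33 for cocaine in cKO, from −9.83 to −0.167 for cKO saline against WT saline and from 1.67 to 12.7 for cKO cocaine against WT cocaine. Highest fold ran from −2.83 to 2.73 for cocaine in cKO, from −0.348 to 3.85 for cKO saline against WT saline, negative without cKO saline replicate 1, and from −0.317 to 5.25 for cKO cocaine against WT cocaine, negative without cKO cocaine replicate 1. The genotype difference of the cocaine effect ran from −21854 to 5247.5 bp for the widest peak, positive without WT cocaine replicate 1, from 6.67 to 17.7 for peak number and from −2.71 to 2.86 for highest fold. HoxD minus HoxC ran from −0.258 to 1.36, negative without cKO saline replicate 3. Members apart ran from 3 to 6 for WT cocaine above WT saline (6 without WT saline replicate 3), from 0 to 6 for cKO cocaine above cKO saline (6 without cKO cocaine replicate 1), from 0 to 2 in the other direction (2 without cKO cocaine replicate 2), from 1 to 5 for WT saline above cKO saline (5 without cKO saline replicate 2) and from 2 to 9 for WT cocaine above cKO cocaine (9 without cKO cocaine replicate 2). Leaving out a library can only add members to such counts, and the share of all genes apart under the same omissions was 6.94%, 5.02%, 0.224%, 1.05% and 3.27%, and among genes with a peak in all 11 libraries 40.6%, 31.1%, 1.62%, 12.1% and 28.1%.

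Same-numbered libraries did not show a pairing throughout. Correlations of their deviations from the group means, over the share of a list's covered length in each tile, were 0.404, −0.264 and 0.0502 between the WT groups and 0.860, 0.398 and 0.0660 between the saline groups, and not every library was closest to its own number. The cKO groups share only 2 numbers (0.909 and 0.790). With a replicate block, peak number in cKO cocaine against cKO saline differed by 0, and no other difference changed sign.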
